A study of Mus musculus with 20 samples.

Results

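The comparison described here sets untreated day 2 against untreated day 1 in ES-ZERT cells, across all probes of an oligonucleotide array. It rests on 4 of the study's 20 arrays, 2 titled Day2 Tmx-- and 2 titled Day1 Tmx-, chosen by their titles, with the 2 Day0 arrays as base line. All 3 groups, like the rest of the series, are clone #18 of transfected V6.5 cells, a mouse embryonic stem (ES) line from an F1 hybrid of C57BL/6 and 129/Sv, carrying pCAG-Zscan4-ERT2 and a neomycin-resistance vector used for selection. Cells grew as a monolayer on gelatin-coated wells in ES medium with serum and LIF. Day 0 cells had no tamoxifen, untreated day 1 cells had none on day 1, and untreated day 2 cells had none on days 1 and 2. A day 1 group in tamoxifen (200 nM) and a day 2 group kept in it on both days are also used below. The day 1 group is tested against day 0, and the change between these tamoxifen groups is compared with the untreated change. The main comparison and the return toward day 0 concern 1 transgenic clone without tamoxifen. Nothing in the labels tells if replicate arrays hold RNA of separate cultures. The p-values rest on the spread between replicate arrays, pooled over all 20 arrays of the 10 groups, and that spread may be technical.

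ES cells are pluripotent cells kept self-renewing in culture by LIF. Zscan4 encodes a zinc finger protein with a SCAN domain that is expressed in short bursts in a small share of ES cells at any time. Fusion to ERT2, a modified oestrogen receptor domain, keeps such a protein inactive until tamoxifen binds it, and the CAG promoter is active in most cell types. Replating ES cells changes their density, contacts and medium, all of which are known to alter transcript levels.

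Each array measured sample RNA (Cy3) against a common reference (Cy5), a pool of RNA from 11 mouse cell lines mixed with RNA of another ES line, and levels are given as log2 of sample over reference. A level of 1 therefore means 2-fold more signal than the reference, and a difference of 1 between days means a 2-fold change. Of 42006 distinct probes, 29414 were well above background in both arrays of at least 1 group and were tested with limma, and a probe was called at a Benjamini-Hochberg adjusted p under 0.05. In the 29325 of these probes with values on all arrays, replicate arrays correlated at 0.9925 on day 0, 0.9845 on untreated day 1 and 0.992 on untreated day 2. The 2 untreated day 1 arrays stood farther apart than those of any other group: 396 probes differed by more than 0.5 between them, against 25 to 70 in the other 9 groups. Of those 396 probes, 143 were called in the day 2 against day 1 comparison, beside 10901 (37.1%) of all 29414 tested. Day 0 and untreated day 1 were on slide 1, and untreated day 2 was on slide 2 with the day 1 tamoxifen arrays, so day and slide cannot be told apart in the main comparison.

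The files pair no probe with a gene, so the probes are identified by their 60-base sequences, and the labelled cell type could not be checked against marker genes. Chromosome and position are likewise not given for them. The sequences below belong to the 4 probes that rose most from day 1 to day 2, the 4 that fell most, 1 probe that rose on both days with the largest total change, and 1 that fell on both days, picked after its values were seen. They are printed as on the array, in lower case. A stretch of 30 bases is shown where all reading frames hold a stop or where the polyadenylation signal AATAAA or ATTAAA is present, which is then in capitals.
Z00020267-1, rose, bases 1 to 30: tgaagttactcgcggttcatgaatacactt
Z00027126-1, rose: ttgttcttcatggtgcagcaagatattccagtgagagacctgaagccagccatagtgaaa
Z00029465-1, rose: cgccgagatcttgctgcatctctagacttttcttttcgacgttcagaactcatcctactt
Z00034384-1, rose: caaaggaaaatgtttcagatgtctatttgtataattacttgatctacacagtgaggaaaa
Z00042638-1, fell, bases 1 to 30: gagatggcgaccatcttgagcctatttggg
Z00019653-1, fell: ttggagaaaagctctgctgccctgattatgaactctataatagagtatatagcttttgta
Z00064469-1, fell, bases 28 to 57: ctcagttcccccAATAAAgtgttttccact
Z00049363-1, fell: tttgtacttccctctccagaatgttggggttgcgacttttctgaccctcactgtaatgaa
Z00017387-1, rose on both days, bases 1 to 30: agttaactgcctatatctggcaaatcagta
Z00023022-1, fell on both days: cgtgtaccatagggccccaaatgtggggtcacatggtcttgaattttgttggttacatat

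The labels state no purpose for setting the untreated days against each other; both served as controls in a tamoxifen time course. Between untreated day 1 and day 2, 10901 of 29414 probes (37.1%) were called, 5898 higher (20.1%) and 5003 lower (17.0%) on day 2 (limma). Higher calls were not in excess under 3 other settings: 3807 were higher and 3901 lower with the local backgrounds as given, 4754 and 4895 with the sample channel alone, and 3799 and 4035 in the series matrix. Only 18098 probes were tested in the series matrix. Most of the changes were small. The median size of a called difference was 0.32 on the log2 scale and the 90th percentile 0.64, against a median standard error of 0.07. That error rests on the spread pooled over 10 groups. Differences between replicate arrays had an SD of 0.18 on untreated day 1 and 0.125 on untreated day 2. In the other groups it was 0.0909 to 0.12, so on average the pooled error is too small for the groups compared. A change of at least 1.5-fold was reached by 932 higher and 498 lower probes, and of at least 2-fold by 158 higher and 62 lower ones. At the edge of the threshold, Z00064985-1 was called at a difference of -0.16 and Z00024834-1 was not at -0.21. The count was 6677 with array weights and 6978 in a fit of the untreated groups and day 0 alone.

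The reference channel held the same RNA pool on every array and was tested by itself; it does not measure slide or labelling effects on the sample channel. In it 9 probes (0.0306%) differed between the day 2 and day 1 arrays, 3 higher and 6 lower (limma adjusted p under 0.05; 2114 at an unadjusted p under 0.05). The median size of a difference was 0.04 in the reference channel and 0.13 in the sample over reference ratios, and the 95th percentiles were 0.14 and 0.58. These are unlike measures: the reference signals are of 1 channel, quantile normalized between arrays, and the ratios are of 2 channels, with loess within arrays. None of the 28 probes chosen for description below was called there, which says little where so few probes were. The largest reference difference among them was 0.27. That count rose to 402 without the second day 2 array, and was 19, 47 and 52 without the first day 1, second day 1 and first day 2 array.

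**Figure D1:**
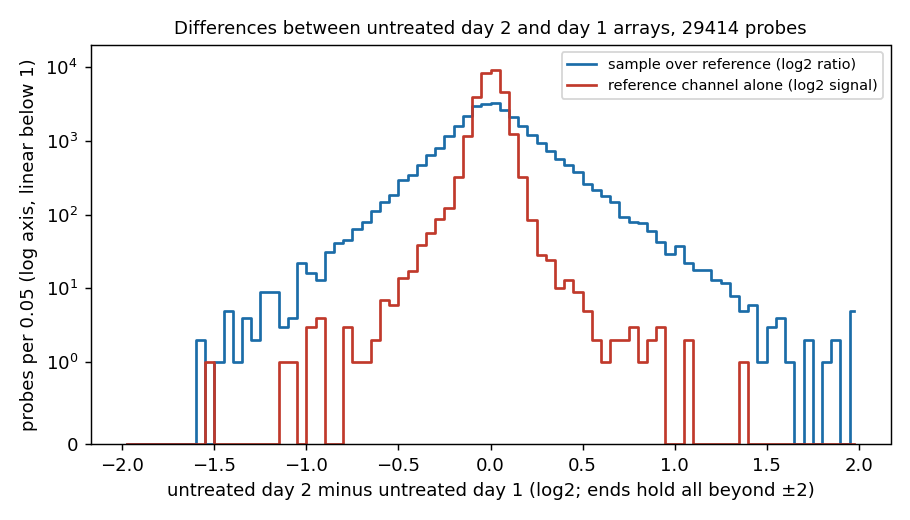
Number of probes (y, log axis that is linear below 1) by difference between untreated day 2 and untreated day 1 (x, log2), for the sample over reference ratios and for the reference channel alone. The ratios spread wider, with a 95th percentile of size of 0.58 against 0.14 in the reference channel. The ratios were normalized by loess within arrays and the reference signals by quantiles between arrays.

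Among the probes well above background on all 4 arrays whose day 1 and day 2 values did not overlap (10423, or 35.4% of those tested), the 10 largest rises were 3.28-fold to 4.89-fold and the 10 largest falls 2.53-fold to 3.02-fold. Z00020267-1 stood at -0.53 and -0.57 on the day 0 arrays, -2.30 and -2.28 on day 1 and -0.10 and 0.10 on day 2. Both day 1 arrays lay far below the other 4, and both day 2 arrays lay above day 0. The rise from day 1 to day 2 was 2.29 (SE 0.068, limma adjusted p = 1.8e-12), and day 2 exceeded day 0 by 0.55 (SE 0.068, adjusted p = 6.3e-05). For Z00027126-1 the levels were 1.62 and 1.44 on day 0, -0.19 and -0.18 on day 1 and 1.98 and 2.10 on day 2. Here the transcript was more abundant than in the reference on days 0 and 2 and less abundant on day 1. It rose by 2.22 (SE 0.096, adjusted p = 1.1e-10).

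Z00029465-1 went from 1.02 and 0.97 on day 0 to -0.32 and -0.09 on day 1 and then to 1.84 and 1.97 on day 2. Of the 10 risers it went farthest past its base line, ending 0.91 above day 0 (SE 0.092, adjusted p = 7.7e-06) after a rise of 2.11. Z00034384-1 read -0.44 and -0.72, then -2.47 and -2.32, then -0.43 and -0.30. Its day 2 values lay at or just above the higher day 0 value, and the day 2 against day 0 difference of 0.22 was not called (adjusted p = 0.11). Z00074958-1, which was far above the reference on day 0, fell from 3.07 and 2.84 to 0.69 and 0.72 and came back to 2.60 and 2.75. It was the only one of the 10 risers that ended below day 0 on average, by 0.28 (adjusted p = 0.045). The remaining 5 risers, Z00002099-1, Z00020794-1, Z00000952-1, Z00053604-1 and Z00021680-1, rose by 1.88, 1.85, 1.84, 1.73 and 1.71. In each, both day 1 arrays were below both day 0 arrays, as was true of the first 5. They lay below the day 2 arrays by the choice of probes.

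The largest fall was that of Z00042638-1, which read -0.99 and -0.87 on day 0, 0.67 and 1.01 on day 1 and -0.58 and -0.92 on day 2. The day 1 arrays stood apart and the day 0 and day 2 arrays overlapped. It fell by 1.59 (SE 0.12, adjusted p = 3.1e-08), against -2.42 in the deposited series matrix. Z00019653-1 ended the farthest below day 0 of the 10 fallers. Its levels were -2.31 and -2.34 on day 0, -1.93 and -1.81 on day 1 and -3.24 and -3.62 on day 2, so a small rise was followed by a fall to 1.1 below day 0 (SE 0.11, adjusted p = 6.3e-06). The day 1 to day 2 difference was -1.56.

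Z00064469-1, which carries AATAAA near its 3′ end, read -0.09 and -0.19, then 1.00 and 1.27, then -0.36 and -0.29. It fell by 1.46 (SE 0.094, adjusted p = 5.6e-09; -2.45 with Agilent's processed signals and -2.50 in the series matrix). Z00049363-1 read -0.67 and -0.64, then 1.56 and 1.93, then 0.55 and 0.05. It kept part of its day 1 rise: day 2 was still 0.95 above day 0 (SE 0.13, adjusted p = 0.00012). The other 6 fallers were Z00053049-1, Z00034575-1, Z00049314-1, Z00075216-1, Z00005799-1 and Z00011711-1, with differences of -1.44, -1.41, -1.41, -1.40, -1.35 and -1.34. Z00075216-1 came back most exactly, from -0.43 on day 0 to 0.97 and then -0.44 on average. With the local backgrounds as given, Z00053049-1 (-0.49, limma adjusted p = 0.44) and Z00049314-1 (-0.82, adjusted p = 0.092) were no longer called, and Z00049363-1 and Z00021680-1 moved to -0.93 and 1.08.

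**Figure D2:**
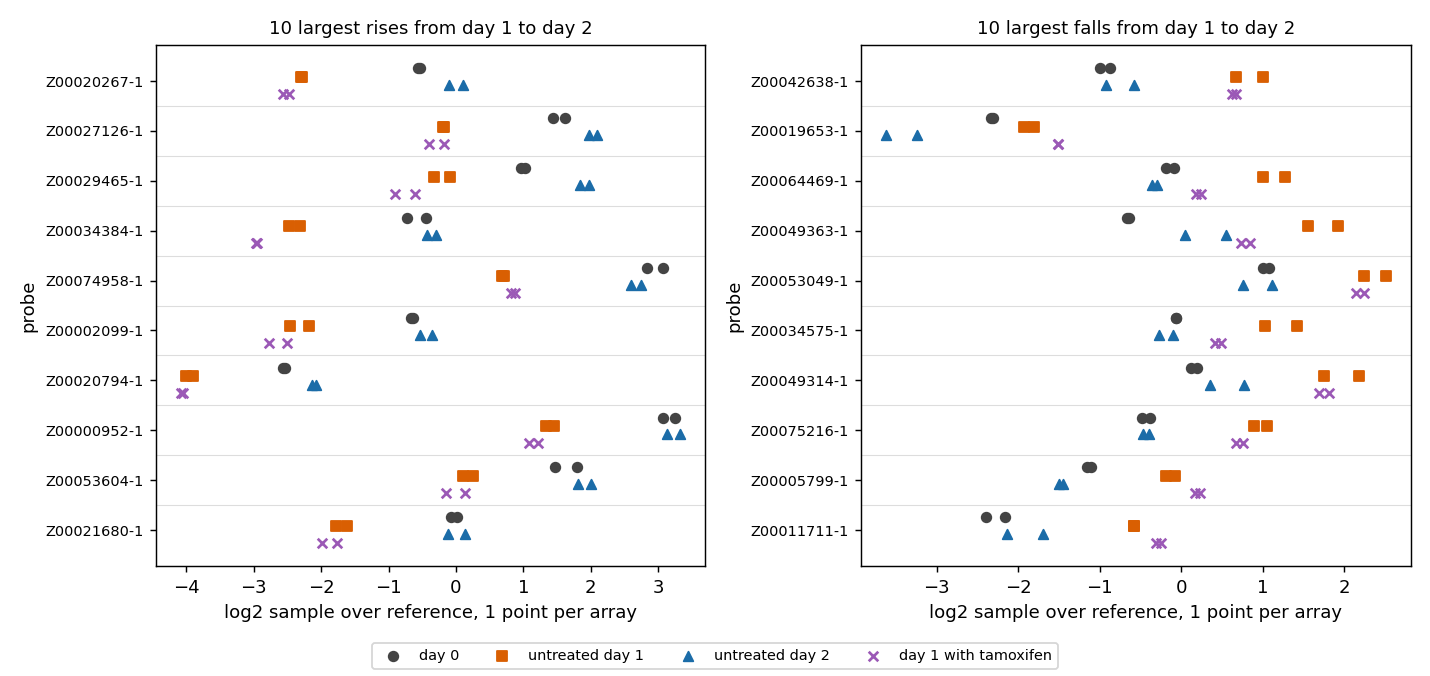
Level (x, log2 sample over reference) of the 10 probes with the largest rise and the 10 with the largest fall from untreated day 1 to day 2 (y), 1 point per array for day 0, untreated day 1, untreated day 2 and day 1 with tamoxifen. The untreated day 1 points lie apart from the untreated day 2 points in all 20 probes, as the choice of probes required. In 19 of the 20, day 1 is also farther from day 0 than day 2 is.

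To say how far the probes returned, the change from day 1 to day 2 was divided by the change from day 0 to day 1, so that 0% means still at the day 1 level and 100% back at day 0. Of all probes tested, 12874 (43.8%) were called on untreated day 1 against day 0 and 2954 (10.0%) on untreated day 2 against day 0. These comparisons share arrays with each other and with the main one, so the return is a description with no test. The 12866 probes called on day 1 with values on all arrays involved returned by a median of 76.1% (quartiles 51.2% and 99.3%). Their median distance from day 0 was 0.33 on day 1 and 0.11 on day 2, and 12141 of them (94.4%) were closer to day 0 on day 2. On day 2, 16.5% of them were called against day 0, in either direction. Among those called in the reverse direction on day 2, 138 that had fallen on day 1 were called above day 0. Likewise, 104 that had risen on day 1 were called below it.

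Probes that had risen on day 1 returned by a median of 76.7% (n = 5750) and those that had fallen by 75.7% (n = 7116). Among the probes moved at least 2-fold on day 1 the median was 84.2% (n = 318). It was 77.6% for the 127 that had risen and 88.2% for the 191 that had fallen. Of these, 65 and 51 were called on day 2 against day 0, in either direction. The median over all called probes depended on the arrays: it was 67.4% on the replicate 1 arrays of the 3 groups and 83.9% on the replicate 2 arrays. With the day 1 change taken from replicate 1 arrays and the day 2 change from replicate 2 arrays it was 96.3%, and 59% the other way round. The count against day 0 moved more: it was 1237 without the first day 2 array, 1250 without the second day 0 array, and 618 in a fit of these 3 groups alone.

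**Figure D3:**
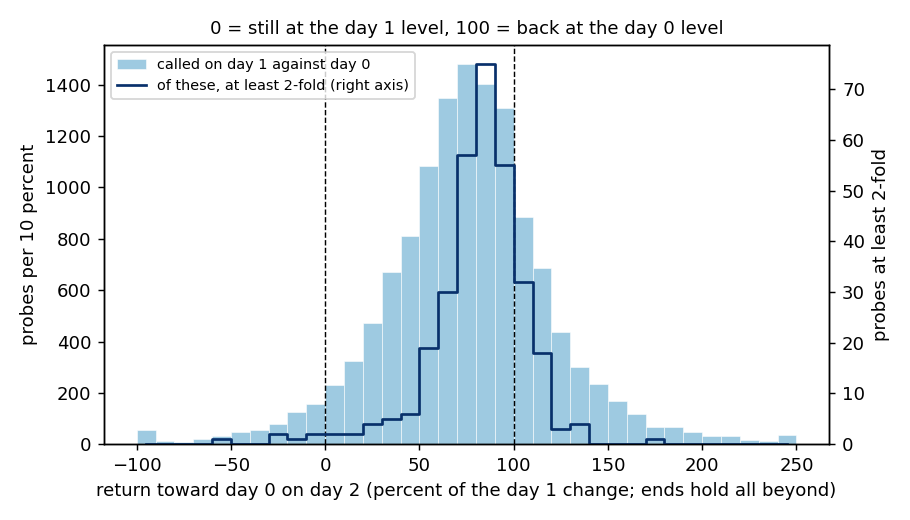
Number of probes (y) by return toward day 0 on day 2 (x, percent of the day 1 change) for probes called on untreated day 1 against day 0, with those changed at least 2-fold as a line on the right axis. The medians are 76.1% for all called probes and 84.2% for those at least 2-fold.

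In correlations across 29325 probes with values on all arrays, day 2 resembled day 0 more than day 1 did: single arrays of untreated day 2 and day 0 correlated at 0.982 to 0.985, those of untreated day 1 and day 0 at 0.943 to 0.953, and those of untreated day 1 and day 2 at 0.948 to 0.968. Day 0 and day 1 were on the same slide, and day 0 and day 2 were not. These values describe the arrays and share the reference pool.

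Among the probes that did not come closer to day 0, 36 were called upward on both steps and 61 downward. Of the 12866 probes called on day 1 with values on all arrays involved, these are 97, beside 8620 called in the reverse direction on day 2. The steps share the day 1 arrays with opposite sign, which by itself favours reverse calls. The 4 probes with the largest total change in each direction are described here. Z00017387-1 read -3.17 and -3.15 on day 0, -2.83 and -2.66 on day 1 and -1.17 and -1.18 on day 2. Most of its rise of 1.98 over 2 days came in the second (1.57, SE 0.089, adjusted p = 1.6e-09). Z00000270-1 had the opposite timing, rising by 1.02 on the first day and by 0.52 (SE 0.09, adjusted p = 0.00019) on the second. Z00078103-1 rose by 0.96, with day 2 arrays at 0.33 and -0.34, and Z00016840-1 by 0.62. The day 2 arrays of Z00078103-1 were the farthest apart of the 4, and its rise was 0.62 without the first of them and 1.29 without the second.

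Among probes that fell on both days, Z00023022-1 went from -1.68 and -1.58 to -2.54 and -2.19 and then to -3.00 and -2.97. Its groups did not overlap at either step, and the second fall was 0.62 (SE 0.093, adjusted p = 5.4e-05) where the first was 0.74. With the local backgrounds as given the second was -1.11. Z00016189-1 (-0.32, adjusted p = 0.027), Z00034303-1 (-0.31, adjusted p = 0.0048) and Z00060954-1 (-0.22, adjusted p = 0.015) had most of their fall on the first day, and the second was 1.17-fold to 1.24-fold. With the local backgrounds as given, Z00016189-1, Z00060954-1 and Z00034303-1 were at -1.37, -1.44 and -1.44. All 3 lost their call for the second day under some of the alternative settings, and all 3 lay well below the reference on every array, at -3.29 or lower.

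The day 1 tamoxifen arrays give a view of the first day that shares no array with the main comparison. They were on slide 2 and day 0 on slide 1, so this difference also spans the slides, and the part of the slides in it was not tested. Of 29414 probes, 13181 (44.8%) were called on day 1 with tamoxifen against day 0. The 6147 that were higher there had a median untreated day 1 to day 2 difference of -0.19, with 3204 lower and 251 higher. For the 7034 that were lower the median was 0.21, with 3970 higher and 300 lower. Of 364 probes at least 2-fold lower with tamoxifen, 317 were higher on untreated day 2 (87.1%), and of 145 at least 2-fold higher, 110 were lower (75.9%), against 20.1% and 17.0% of all probes.

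**Figure D4:**
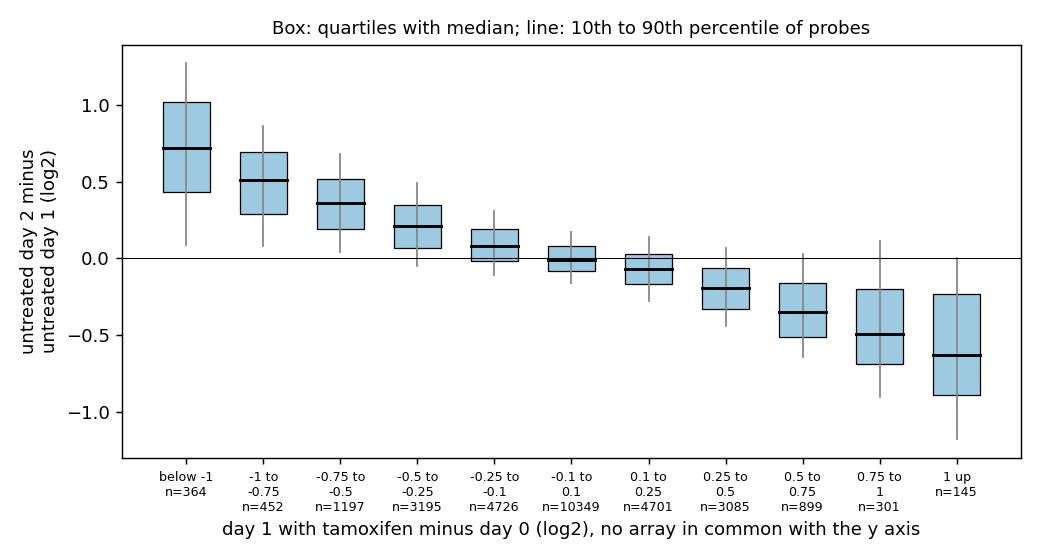
Untreated day 2 minus untreated day 1 (y, log2) for probes binned by day 1 with tamoxifen minus day 0 (x, log2); boxes are quartiles with the median and lines the 10th to 90th percentile of the probes in a bin. The medians fall from 0.72 in the lowest bin to -0.63 in the highest, and the 2 differences have no array in common.

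Cells in continued tamoxifen differed between days 1 and 2 in the same direction as untreated cells for all 10 risers and all 10 fallers, by 1.70 to 3.01 and by -1.63 to -0.60. The share of same directions over all called probes was not computed, so this cannot be called particular to the 20. The change itself differed between untreated and tamoxifen-treated cells at 697 probes (2.37%; limma). Among the 20 it differed at 5 risers, where the rise in tamoxifen was larger, and at 1 faller, Z00064469-1, where the fall was smaller (-0.60 in tamoxifen, difference -0.86, adjusted p = 0.0016). In that faller the day 1 tamoxifen arrays (0.18 and 0.24) lay well below the untreated day 1 arrays (1.00 and 1.27). Of the 4 described probes that fell on both days, Z00016189-1, Z00060954-1 and Z00034303-1 had differences of 0.03, 0.20 and 0.32 from day 1 to day 2 in tamoxifen, and the change differed from that in untreated cells at the last 2 (adjusted p = 0.024 and 0.0049).

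The called probes were spread unevenly over other properties. By day 0 level, 1839 probes above 1 on both day 0 arrays (more signal in the ES sample than in the reference) had 35.7% higher and 21.9% lower on day 2, and 3537 probes below -1 on both had 28% higher and 14.8% lower. The other 24038 had 17.7% and 17%. The first class had a median difference from day 0 of -0.13 on day 1 and -0.034 on day 2. In the second class the medians were -0.053 and -0.0028, and in the rest 0.0013 and -0.0034. The classes were set on the same day 0 arrays that enter these differences, so the selection may be part of them. By brightness, 7.94% of the 9805 dimmest probes were higher and 8.82% lower, against 26.5% and 21.3% of the 9805 brightest.

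By base composition, 23.7% of the 11377 probes with at most 41.7% G or C were higher on day 2 (2695 probes, with 2172 lower). Of the 8801 probes with 50% or more, 15.1% were higher and 13.5% lower. The hexamer AATAAA, searched on the printed strand, was in 7.5% of all tested probes, 8.48% of the higher, 9.71% of the lower and 6.6% of those not called. Probes that overlap read the same RNA on the same arrays, so they check the spots and not the days or slides. In 932 pairs that share 25 to 59 bases, the 2 differences correlated at 0.938 across pairs, with a median gap of 0.046. In all 317 pairs with both probes called, the directions were the same, and in 107 pairs only 1 probe was called. Z00006345-1, Z00030491-1 and Z00032620-1, which share 30 to 53 bases pairwise, rose by 1.02, 1.08 and 1.02. The 20 pairs of probes with the same 60 bases had a median gap of 0.056.

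A small number of probes could be tied to a gene by position. Of all probes on the array, 276 matched at least 30 bases of a RefSeq promoter window (GRCm38.p6) on the sense strand, 255 of these matched 1 gene, 152 reached at least 20 bases into the transcribed part, and 87 of those were tested. These lie around the annotated start, and some begin before it. The first Fau probe below began at base -38 from the start, with 22 of its 60 bases past it. The windows end 50 bases past the start, so the Gstp1 probe, for example, was matched over 49 bases only. Copies elsewhere in the genome were not excluded. Of the 87, 15 were called (7 higher and 8 lower), a smaller share than the 37.1% of all probes. Fau, which encodes a ubiquitin-like protein joined to a ribosomal protein, had 2 such probes (19:6057909-6057968 and 19:6057955-6057996, plus strand), and both fell, by 0.39 (adjusted p = 3.2e-05) and 0.26 (adjusted p = 0.0014). The second of the 2 read -0.56 and -0.56 on day 0, -0.47 and -0.51 on day 1 and -0.70 and -0.80 on day 2.

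Gstp1, a glutathione S-transferase (19:4037863-4037911), rose from -1.30 and -1.36 to -0.99 and -0.92 and fell again to -1.26 and -1.22, by 0.29 (SE 0.056, adjusted p = 0.00065). Ttll3, a tubulin glycylase, fell by 0.35. Frg2f1 fell by 0.58 (adjusted p = 8.2e-06), with differences of -1.70 with Agilent's processed signals and -1.75 in the series matrix. Toe1 fell by 0.41, and its difference was -0.97 with the processed signals, -0.25 with median centring, -0.26 without the second day 1 array and -0.23 (adjusted p = 0.29) with the local backgrounds as given. D8Ertd738e (-0.22) and Olfr615 (-0.16), an olfactory receptor not well above background on all 4 arrays, also passed the threshold, and lost their calls under several settings, with differences of -0.15 and -0.08 under median centring. Cyba, a subunit of the NADPH oxidase, rose by 0.36 (SE 0.076, adjusted p = 0.0011), and its difference was -0.14 (adjusted p = 0.68) with the local backgrounds as given and 0.22 without the second day 2 array. Others that rose were 4930522L14Rik (0.53), Gm52042 (0.33), LOC115488023 (0.21) and Leng1 (0.18). With the local backgrounds as given, Gm52042 was at 0.05 (adjusted p = 0.77), Leng1 at 0.02 (adjusted p = 0.86) and LOC115488023 at 0.72. LOC115488023 was at 0.10 (adjusted p = 0.41) without the second day 1 array, 0.32 without the first and 0.14 (adjusted p = 0.27) without the first day 2 array. Leng1 was at 0.11 (adjusted p = 0.29) without the first day 1 array and 0.13 (adjusted p = 0.26) without the second day 2 array.

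The 2 largest rises among the placed probes rest on 1 array. Cfap410 read -1.13 and -3.04 on day 1 and -1.19 and -0.92 on day 2, so its groups overlap, and its rise of 1.03 (adjusted p = 0.047) was 0.07 without the second day 1 array. Rpl10a, a protein of the large ribosomal subunit, read 0.13 and -1.11 on day 1 and 0.16 and 0.18 on day 2, and its rise of 0.66 (adjusted p = 0.044) was 0.04 without that array.

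**Figure D5:**
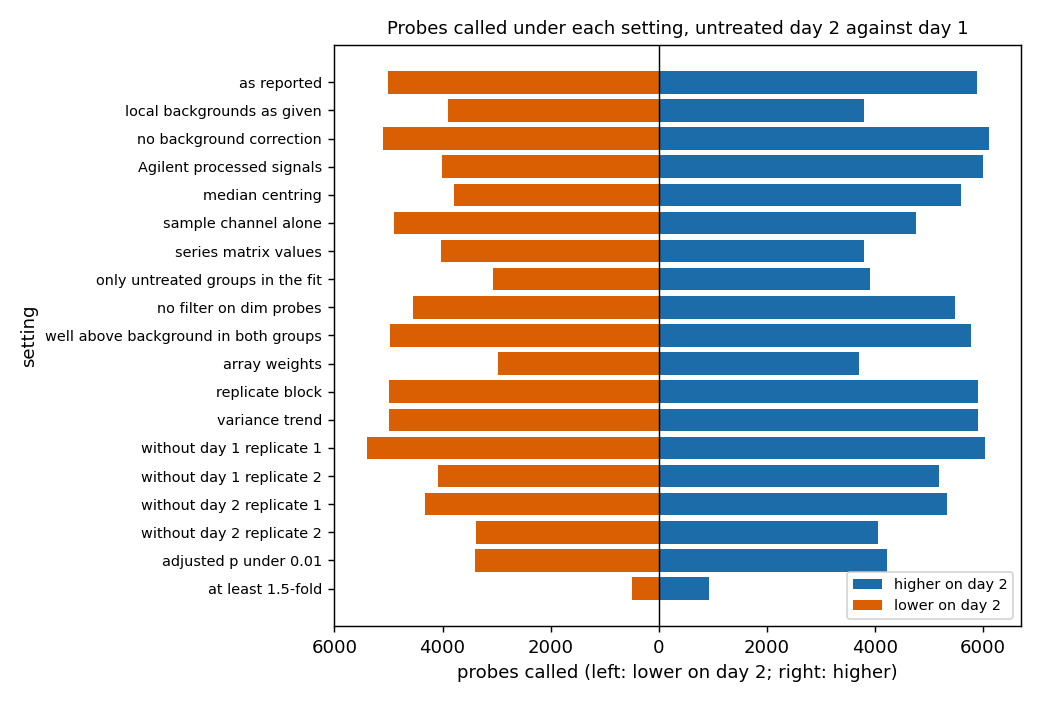
Number of probes called lower (left) and higher (right) on untreated day 2 against day 1 under each processing setting (y). The counts lie between 6677 and 11433 except at a 1.5-fold limit, where 932 were higher and 498 lower. The number of probes tested differs between settings, from 18098 in the series matrix to 42005 with no filter on dim probes.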

How the data were processed

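The deposited scanner files hold intensity values of 2-colour arrays from Agilent Feature Extraction (9.5.1.1 in the headers). The deposited series matrix, on a log10 scale with its centring unknown, served as an alternative. Mean signals were corrected with normexp (offset 50) and loess within arrays (limma 3.58.1, R 4.3.3), with 12 local backgrounds above 10 times the channel median, all on the first untreated day 1 array, set to that median. Spots were averaged per probe, and log2 ratios of sample over reference were fitted for 10 groups in 1 model over 20 arrays (10 residual degrees of freedom, prior 6.94). Folds understate changes of dim probes because of the offset, and 2 arrays a group limit the precision. The fit was tested on simulated data. The members, lists and tests were chosen with earlier results of these data known. The named probes are the 10 largest rises and 10 largest falls that were called, well above background on all 4 arrays and not overlapping, and the 4 probes each way with the largest total change among those called in 1 direction on both days. Without gene names the 33 gene lists (790 genes) could not be applied: 5 of their genes had a placed probe. Placing probes by promoter windows (250 bases before to 50 after the start), the classes by day 0 level, brightness, base composition and overlap, and the day 1 tamoxifen sets were added after seeing the data. Replicate numbers did not pair the arrays, and the replicate block is given with the alternatives.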

Additional observations from a re-analysis of the deposited data

Results flagged for a closer look

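For 8 named probes the change from day 1 to day 2 differed between untreated cells and cells in continued tamoxifen (interaction in the limma fit over 20 arrays). Of all 29414 probes tested, it differed at 697 (2.37%). The interaction was not examined under the alternative settings. As untreated minus tamoxifen change on the log2 scale, the difference was -0.72 for Z00020267-1, -0.71 for Z00029465-1, -0.60 for Z00002099-1, -0.44 for Z00020794-1 and -0.61 for Z00021680-1, all of which rose more in tamoxifen. It was -0.86 for Z00064469-1, which fell more without tamoxifen. For Z00060954-1 and Z00034303-1, which fell in untreated cells and were higher on day 2 than on day 1 in tamoxifen, it was -0.42 and -0.63. Their untreated differences of -0.22 and -0.31 were both -1.44 with the local backgrounds as given, and lost the call under some other settings. Adjusted p-values lay between 0.00048 and 0.027. The 4 groups involved were on 3 slides, and the part of the slides was not tested.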

How the results depend on the processing

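The day 2 against day 1 count of 10901 was 6978 with only day 0 and the untreated groups in the fit, 6677 with array weights and 1430 at 1.5-fold, and it was 7450 to 11433 with 1 array left out. Day 1 against day 0 gave 1922 at 1.5-fold and 10751 to 13016 with 1 array left out. Day 2 against day 0 gave 620 with local backgrounds as given, 1807 with Agilent's processed signals, 1780 with median centring, 618 with only these groups, 1960 with array weights, 1145 at an adjusted p under 0.01, 196 at 1.5-fold and 1237 to 2215 with 1 array left out. The median return was 96.3% and 59% with the steps on different arrays and 68.7% to 84.1% with 1 array left out. The reference channel count was 1 with only these groups and 19 to 402 with 1 array left out. With the replicate block, where the deviations of same-numbered arrays correlated at -0.06 to 0.086, the count was 10889. The share of the reported calls also called was 98.2% there, 55% with the local backgrounds as given, 61.3% with array weights, 61.9% in the series matrix and 63.8% with only day 0 and the untreated groups. In the series matrix only 18098 probes were tested, so reported calls at other probes could not recur there. Of 319 values of the 20 largest risers and fallers, 317 kept direction and call; the local backgrounds as given ended 2 calls. Cyba turned to -0.14 under that setting. Of the values of the 8 probes that changed in 1 direction on both days, 17 of 126 lost the call, as did 55 of 232 of the 15 called placed probes. The causes were not tested. Naming by translated match was not run, since no protein table was given. The calls of dim probes are the least precise, and 2 arrays a group limit all results.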
